A study of Homo sapiens with 16 samples.

Results

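The 6 cytokine genes IL1A, IL1B, IL6, IL11, LIF and CSF2 were followed in MDA-MB-231 cells treated with afatinib, paclitaxel or both drugs. They were chosen by name from the 37864 genes of the count table, and all 6 were among the 17991 genes with enough counts to be tested. MDA-MB-231 is an established line of human triple-negative breast cancer. The 4 groups were afatinib, an irreversible inhibitor of the EGFR family of receptor kinases; paclitaxel, which stabilises microtubules; the combination of afatinib and paclitaxel; and DMSO, the solvent control. All groups were the same line in DMEM with 10% fetal bovine serum. Each group held 4 libraries, 16 in all. The sources used here give neither dose nor exposure time, nor whether replicates were separate cultures, so that p-values measure the spread between these libraries, which may be technical.

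The choice of genes rested on measured values: earlier results of these data, in which IL1A, IL1B and IL11 had been named among the falls with afatinib and CSF2 among those with paclitaxel. The differences of each treatment from DMSO are therefore a description, with no test. Tests are given for the combination against paclitaxel, which shares no library with afatinib against DMSO, and for the combination against afatinib, which shares none with paclitaxel against DMSO. Earlier results of the combination were known as well when the genes were chosen, so these tests are not independent of that choice. Their p-values describe the spread between these libraries and give no independent support. The tests use the quasi-likelihood F-test of edgeR over all 17991 genes, with Benjamini-Hochberg adjustment, and a gene was called at an adjusted p under 0.05.

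IL1A and IL1B encode interleukin 1α and interleukin 1β, which signal through the receptor IL1R1 with its partner IL1RAP to NF-kB and MAP kinases. IL1α is active as made, while the IL1β precursor is cut by caspase 1 in inflammasomes. IL6, IL11 and LIF encode cytokines that use the shared receptor subunit gp130 (IL6ST), each with its own partner receptor, and activate JAK kinases and STAT3. CSF2 encodes GM-CSF, which acts on myeloid cells through CSF2RA and CSF2RB. Many cytokine mRNAs are short-lived because AU-rich elements in their 3′ UTRs are bound by decay proteins such as tristetraprolin (ZFP36), and NF-kB, AP-1 and C/EBP factors act at their promoters. Breast cancer cells of the mesenchymal, triple-negative type are known to secrete several of these cytokines.

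The genes lie on 5 chromosomes (GRCh38, GENCODE v29). IL1A (ENSG00000115008, chromosome 2, 112773915 to 112784590, minus strand) and IL1B (ENSG00000125538, chromosome 2, 112829751 to 112836903, minus strand) lie 45161 bases apart. IL6 (ENSG00000136244) is on chromosome 7 at 22725884 to 22732002, plus strand. IL11 (ENSG00000095752) is on chromosome 19 at 55364389 to 55370463, minus strand. LIF (ENSG00000128342) is on chromosome 22 at 30240447 to 30246851, minus strand, and CSF2 (ENSG00000164400) on chromosome 5 at 132073790 to 132076170, plus strand. The antisense genes AC073072.1 (8 to 28 counts per library) and LIF-AS1 (3 to 17) and AC004264.1 (13 to 49), and the protein-coding STEAP1B (23 to 75), overlap IL6 or LIF. Whether counting used strand is not stated, so reads of the overlaps cannot be assigned for certain.

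A feature that the choice of genes did not use is the AU-rich pentamer ATTTA, the core of AU-rich elements, in the 3′ UTR. The 30-base windows with the densest pentamers are shown for each gene because they make the contrast between clustered and scattered pentamers visible, with pentamers in capitals (5′ to 3′ as DNA letters of the GENCODE v29 transcript):
IL1A: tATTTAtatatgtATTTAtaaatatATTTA
IL1B: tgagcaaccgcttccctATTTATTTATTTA
IL6: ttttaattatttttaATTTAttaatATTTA
IL11: ttccaaagccagatcttATTTATTTATTTA
LIF: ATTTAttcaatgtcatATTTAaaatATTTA
CSF2: ttttaaaatATTTATTTATTTATTTATTTA

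CSF2, IL1B and IL11 held runs of overlapping pentamers, 5 in the window of CSF2 and 3 in those of IL1B and IL11. In IL6, LIF and IL1A the pentamers stood apart. Per length, CSF2 had the densest 3′ UTR, with 8 pentamers in 318 bases or 25.16 per kb, and 0.0608% of 13150 tested genes with a 3′ UTR were as dense. IL6 had 6 pentamers in 429 bases (13.99 per kb, 0.327% as dense). IL1B had 6 in 610 bases (9.84 per kb, 0.981%), and IL11 had 9 in 1618 bases (5.56 per kb, 6.23%). IL1A had 5 in 1152 bases (4.34 per kb, 12.1%). LIF had 7 in 3204 bases (2.18 per kb, 40%), near the median of 1.64 per kb over all these genes. The nonamer TTATTTATT, which contains the pentamer, occurred 6 times in IL11, 3 in CSF2 and 2 each in IL1B and LIF. Of the 13150 genes, 9.48% held at least 1, 2.32% at least 2 and 0.814% at least 3. The nonamer was not found in the 3′ UTRs of IL1A and IL6.

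**Figure D1:**
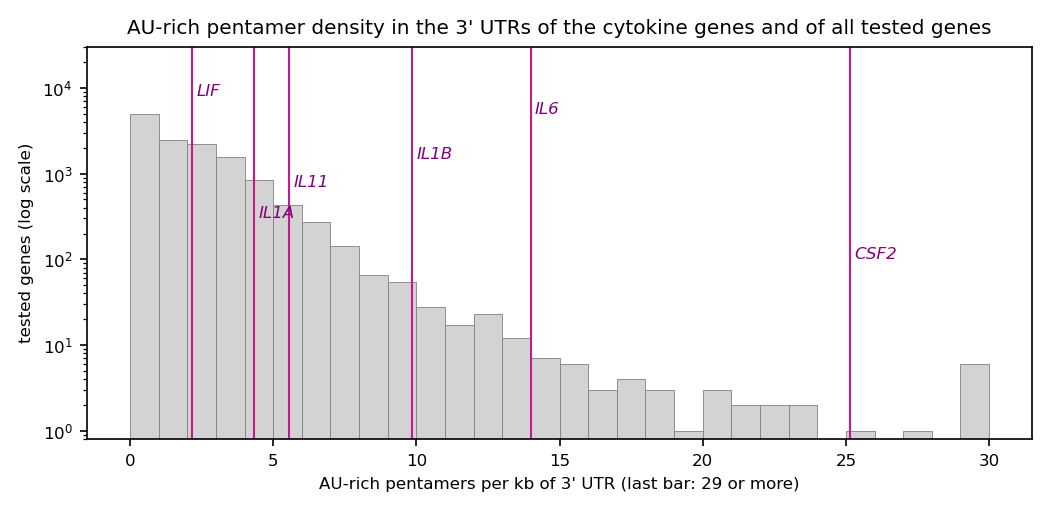
Distribution of the density of AU-rich pentamers (per kb of 3′ UTR, x axis) over 13150 tested genes (grey bars, number of genes on a log scale), with the 6 cytokine genes as vertical lines. The line of CSF2, at 25.16 per kb, lies far to the right of that of LIF, at 2.18 per kb, which is near the median of 1.64.

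In the promoters, 250 bases before the RefSeq start (GRCh38.p14) were searched on both strands for the NF-kB motif GGGANNTTC, the AP-1 motif TGANTCA, the CRE motif TGACGTCA and the C/EBP motif TTNNGNAAT. Of 27305 promoters, 3.57%, 6.6%, 1.77% and 10% held these. IL6 had an NF-kB match (GGGATTTTC, 73 to 65 bases before the start) and a C/EBP match, and IL1A an AP-1 match (TGACTCA, 12 to 6 bases before the start) and 2 C/EBP matches. IL1B had 1 C/EBP match. Of the 250 bases, 97 of IL1A, 124 of IL1B and 53 of IL6 lie in annotated exons of the same gene (GENCODE v29). The AP-1 match of IL1A, its C/EBP match nearer the start and the IL1B match lie in such bases. They are therefore not upstream of every annotated start. The whole IL6 window (chromosome 7, 22726950 to 22727199) lies past the first annotated start of IL6, at 22725884. Neither IL6 match is therefore upstream of every annotated start. The LIF promoter was not analysed here. The windows of IL11 and CSF2 are printed because their levels with paclitaxel stood at 106% and 46.5% of DMSO, the highest and the lowest of the 6 genes, with the match in capitals:
IL11 (chr19:55370464-55370713, minus strand): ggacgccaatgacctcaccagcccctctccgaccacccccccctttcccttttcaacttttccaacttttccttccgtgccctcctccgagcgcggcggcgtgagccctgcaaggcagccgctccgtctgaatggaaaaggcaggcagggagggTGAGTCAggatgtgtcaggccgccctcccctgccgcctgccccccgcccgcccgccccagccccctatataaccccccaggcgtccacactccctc
CSF2 (chr5:132073539-132073788, plus strand): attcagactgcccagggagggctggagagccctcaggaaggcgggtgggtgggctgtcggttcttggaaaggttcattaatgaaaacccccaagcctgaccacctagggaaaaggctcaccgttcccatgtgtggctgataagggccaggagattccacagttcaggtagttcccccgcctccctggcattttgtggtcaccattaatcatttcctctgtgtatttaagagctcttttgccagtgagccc

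IL11 held an AP-1 match, TGAGTCA, 96 to 90 bases before the start, and the CSF2 window held none of the 4 motifs. A match, or its absence, is only a description of these letters, and no link to the levels was tested. Sites that differ from the 4 patterns are not found by this search.

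By the labels, RNA was more dilute in replicates 3 and 4 of each group (118 to 330 ng/µl) than in replicates 1 and 2 (345.6 to 1290.9 ng/µl), and every fit had these 2 concentration sets as a term. Library totals lay between 28.4M and 48.1M counts (median 42.7M), with paclitaxel replicate 4 the smallest. Of the markers of the line, CD44, VIM and EGFR were present in every library and the luminal gene ESR1 stood at 0.156 to 0.491 CPM (counts scaled to library size). The 9 blood cell markers summed to 243 to 606 CPM, of which LAPTM5 made up 242 to 604, while CD14 reached 1.7, CSF1R 1.66 and PTPRC, a defining marker, 0.111 CPM at most. Since these are cultures of one line measured in bulk, fewer expressing cells and less RNA per cell cannot be told apart.

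The levels in DMSO spanned a wide range. Per length, as counts per kilobase of exon scaled to library size (RPKM, n = 4), IL11 stood at 61.3 ± 4.91, CSF2 at 45.3 ± 16, LIF at 40.7 ± 10.3, IL1A at 6.07 ± 0.852, IL6 at 3.45 ± 0.764 and IL1B at 1.58 ± 0.422 (SD). With the longest annotated transcript as the length the order was the same, with IL6 at 4.67 and IL1B at 3. IL11 was above 96.1% of tested genes and IL1B above 41.2%. CSF2 was not separated beyond the SDs from IL11 or from LIF, while IL11 (56.8 to 68.2) was above LIF (31.9 to 54) in every library. By the deposited lengths IL1A, IL6 and IL1B stood apart from these genes and from each other. With the longest transcript they lay closer together (6.07, 4.67 and 3), and their separation from each other was not assessed there. With afatinib CSF2 (29.6 ± 9.85 RPKM), LIF (29 ± 6.76) and IL11 (27.8 ± 1.63) lay close together. With paclitaxel IL11 (64.8 ± 6.63) was above LIF (41.4 ± 8.13), and LIF above CSF2 (21.3 ± 6.5), and in the combination IL11 (31.3 ± 6.48) and LIF (29.2 ± 5.54) were not separated beyond their SDs while CSF2 (12 ± 4.82) was lower. IL1A, IL6 and IL1B stayed between 0.382 and 4.7 RPKM on average in the groups with drug. Values below are CPM, to be compared within a gene only. The share of all tested genes whose groups do not overlap was not computed. Statements below on overlap between groups are therefore a description only.

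IL1A, which encodes interleukin 1α, had 4.99, 5.98, 5.03 and 4.98 CPM in afatinib replicates 1 to 4. It had 7.49, 11, 10.3 and 11.1 CPM with paclitaxel, 3.37, 4.18, 4.27 and 4.23 CPM in the combination and 10.3, 14.3, 13 and 13.9 CPM in DMSO. Every afatinib and every combination library was below every DMSO and every paclitaxel library, while the paclitaxel and DMSO libraries overlapped. The log2 difference from DMSO was −1.29 ± 0.12 for afatinib (SE, 40.8% of the DMSO level), −0.37 ± 0.11 for paclitaxel and −1.68 ± 0.12 for both drugs.

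IL1B, the second interleukin 1 gene, had 1.8, 1.05, 1.75 and 2.02 CPM with afatinib and 3.22, 4.14, 4.06 and 6.15 CPM with paclitaxel. It had 1.07, 1.03, 1.15 and 1.49 CPM in the combination and 3.29, 4.35, 5.99 and 5.93 CPM in DMSO. The groups with afatinib did not overlap those without it, although counts were low (44 to 277 per library). The log2 differences from DMSO were −1.55 ± 0.16 for afatinib, −0.16 ± 0.14 for paclitaxel and −2.03 ± 0.16 for both drugs, where 24.6% of the DMSO level remained.

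IL6, which signals through gp130 with IL6R, had 6.45, 4.27, 4.75 and 5.21 CPM with afatinib and 6.79, 6.49, 5.64 and 7.07 CPM with paclitaxel. It had 5.03, 3.27, 3.8 and 4.11 CPM in the combination and 8.9, 6.16, 5.49 and 7.98 CPM in DMSO. Afatinib and DMSO overlapped, because afatinib replicate 1 was above DMSO replicates 2 and 3, but each afatinib library was below the DMSO library of its number. The combination was below DMSO in every library. The log2 differences were −0.46 ± 0.15, −0.14 ± 0.15 and −0.81 ± 0.15 for afatinib, paclitaxel and the combination.

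IL11, which acts through IL11RA and gp130, had 72.9, 70.6, 80.6 and 73 CPM with afatinib and 176, 193, 150 and 174 CPM with paclitaxel. It had 89.9, 105, 73.7 and 66.2 CPM in the combination and 152, 182, 158 and 162 CPM in DMSO. The groups with afatinib did not overlap those without it, while paclitaxel libraries overlapped the DMSO libraries. The log2 differences were −1.14 ± 0.10 for afatinib, 0.08 ± 0.09 for paclitaxel and −0.98 ± 0.09 for both drugs.

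LIF, a gp130 cytokine that acts through LIFR, had 92.5, 91.7, 142 and 134 CPM with afatinib and 135, 141, 177 and 204 CPM with paclitaxel. It had 95.5, 101, 124 and 143 CPM in the combination and 127, 133, 173 and 214 CPM in DMSO. Over all libraries the groups overlapped, since replicates 3 and 4 were higher than 1 and 2 in each group, but within each concentration set afatinib and combination libraries were below those of DMSO. The log2 differences were −0.49 ± 0.07, 0.04 ± 0.07 and −0.47 ± 0.07 for afatinib, paclitaxel and the combination.

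CSF2, the myeloid growth factor GM-CSF, had 20.4, 14, 27.3 and 31.6 CPM with afatinib and 12.8, 12.4, 18.7 and 23.1 CPM with paclitaxel. It had 7.48, 5.66, 10.2 and 14.4 CPM in the combination and 31.5, 24.4, 33.1 and 53.7 CPM in DMSO. Paclitaxel and combination libraries were all below the DMSO libraries, and afatinib libraries overlapped those of DMSO but were lower within each concentration set. The log2 differences were −0.63 ± 0.17 for afatinib, −1.10 ± 0.17 for paclitaxel and −1.95 ± 0.18 for both drugs, where 26% of the DMSO level remained.

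**Figure D2:**
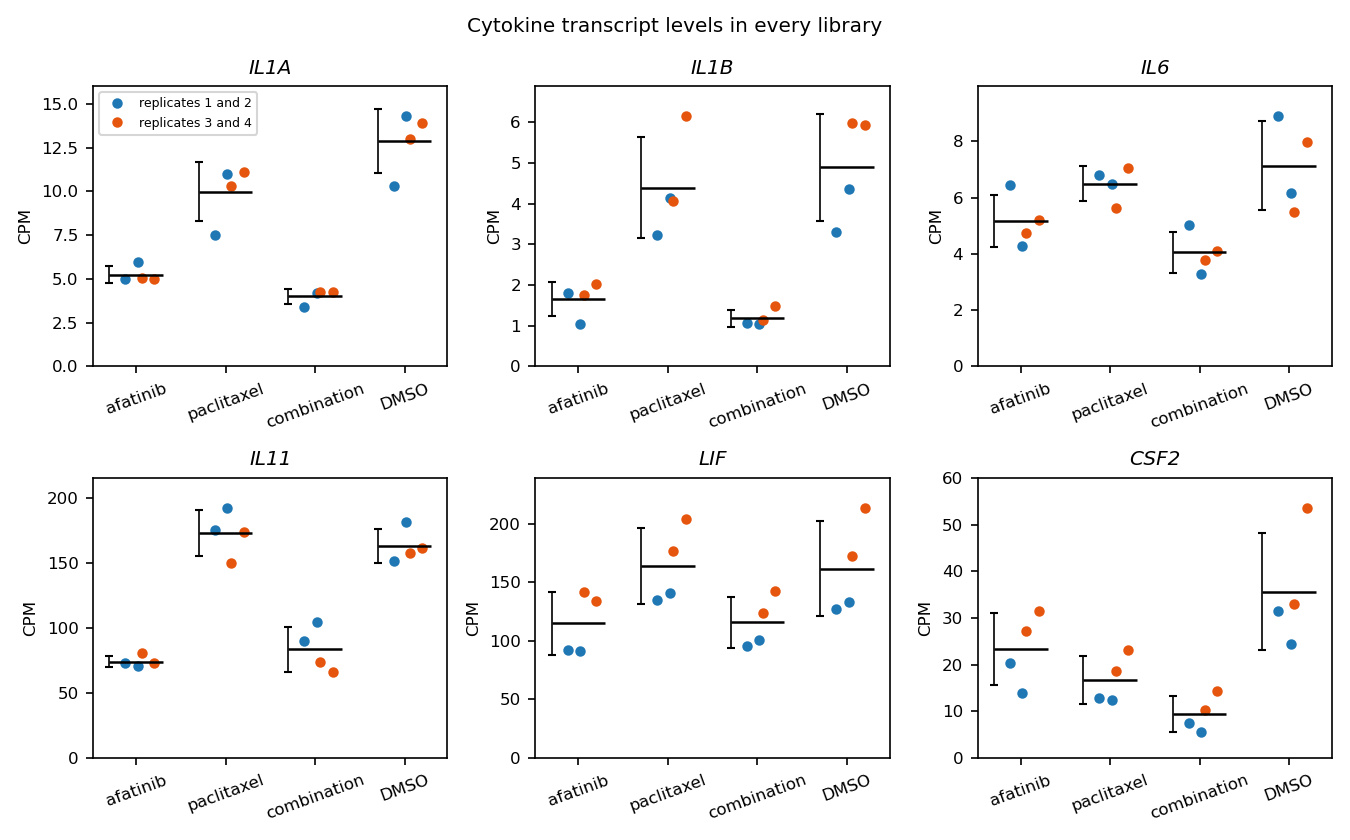
CPM (y axis, linear, from 0) of each cytokine gene in every library, by treatment, with replicates 1 and 2 in blue and replicates 3 and 4 in orange; lines are group means and bars ± SD (n = 4). IL1A, IL1B and IL11 are low in both groups with afatinib, LIF is raised in replicates 3 and 4 of every group, and CSF2 is lowest in the combination, at 5.66 to 14.4 CPM.

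For reference only, afatinib against DMSO placed 6 of the 6 genes lower among calls (10.1% of all tested genes were called lower, 9% higher and 19.1% in either direction), paclitaxel against DMSO 2 of 6 (IL1A and CSF2; 11.9% lower, 8.65% higher, 20.5% either) and the combination against DMSO 6 of 6 (19.5% lower, 18.5% higher, 38% either). These counts rest on values that chose the genes and are not read further. The afatinib calls of IL6 and CSF2 and the paclitaxel call of IL1A each depended on single libraries. IL6 was no longer called when afatinib replicate 2, 3 or 4 or DMSO replicate 1 or 4 was left out (−0.57 to −0.34 over all leave-outs). For CSF2 these were afatinib replicates 2 and 3 and DMSO replicates 1 and 4 (−0.77 to −0.52), and for IL1A paclitaxel replicate 1 and DMSO replicates 2 and 4 (−0.46 to −0.26).

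All 6 cytokines were lower when afatinib was given with paclitaxel than with paclitaxel alone. Combination against paclitaxel called 6 of 6 genes lower, where 11.6% of all tested genes were called lower (12.6% higher, 24.2% in either direction), with a median log2 difference of −0.95 against −0.01 over all genes. IL1B fell by 1.87 ± 0.17 on the log2 scale (adjusted p = 2.22e-08), to 27.3% of the paclitaxel level. IL1A fell by 1.31 ± 0.12 (adjusted p = 6.48e-08) and IL11 by 1.05 ± 0.09 (adjusted p = 1.37e-07). The falls of CSF2 (−0.84 ± 0.18, adjusted p = 0.00397), IL6 (−0.68 ± 0.15, adjusted p = 0.00216) and LIF (−0.50 ± 0.07, adjusted p = 4.9e-06) were smaller. Each of the 6 genes was lower in 4 of 4 pairs of libraries with the same replicate number. The share of all tested genes with this pattern was not computed, so the pairs are a description only. All 6 calls held without each of the 16 libraries in turn.

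Within each concentration set the differences had the same sign. In replicates 1 and 2 and in replicates 3 and 4 the differences were −1.29 and −1.33 for IL1A, −1.82 and −1.92 for IL1B, and −0.92 and −1.21 for IL11. They were −0.69 and −0.67 for IL6, −0.49 and −0.51 for LIF and −0.95 and −0.76 for CSF2. Fitted within 1 set alone, IL6 passed in neither (adjusted p = 0.116 in replicates 1 and 2 and 0.0502 in replicates 3 and 4), and CSF2 did not pass in replicates 3 and 4 (adjusted p = 0.0547). Without the concentration term LIF (adjusted p = 0.221) and CSF2 (0.203) were no longer called, and on the deposited concentration-corrected table CSF2 was not (limma adjusted p = 0.0614). The summed level of 8 luminal epithelial markers, led by KRT8 and KRT18, was 732 to 780 CPM in the combination and 710 to 816 with afatinib, against 898 to 970 with paclitaxel and 937 to 1110 in DMSO, and its part in these differences was not tested. Over all libraries KRT8 stood at 492 to 734 CPM, KRT18 at 191 to 350, GATA3 at 8.22 to 14.3, EPCAM at 6.6 to 13.7 and PGR at 3.8 to 6.44. FOXA1 stood at 0.572 to 1.47, ESR1 at 0.156 to 0.491 and CDH1 at 0.0455 to 0.407 CPM, and none of the 8 was at 0 in any library.

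CSF2 and IL1A were lower when paclitaxel was given with afatinib than with afatinib alone. Combination against afatinib called 2 of 6 genes lower and none higher (14.3% of tested genes were called lower, 13.1% higher, 27.4% in either direction), with a median of −0.38 against 0 over all genes. CSF2 fell to 40.1% of the afatinib level, by 1.32 ± 0.18 on the log2 scale (adjusted p = 8.15e-05, −1.4 and −1.25 within the sets). IL1A fell by 0.39 ± 0.13 (adjusted p = 0.0262), or by 0.54 in replicates 1 and 2 and 0.23 in replicates 3 and 4. Leaving out afatinib replicate 2 (−0.29, adjusted p = 0.13) or combination replicate 1 (−0.32, adjusted p = 0.103) ended that call. IL1A also passed neither in replicates 1 and 2 alone (adjusted p = 0.156) nor in replicates 3 and 4 alone (0.264). Without the concentration term it was not called either (adjusted p = 0.139).

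The other 4 genes did not pass. IL1B differed by −0.48 (95% interval −0.86 to −0.10, adjusted p = 0.0569) and IL6 by −0.36 (−0.67 to −0.04, adjusted p = 0.093). IL11 differed by 0.16 (−0.04 to 0.36, adjusted p = 0.237) and LIF by 0.02 (−0.12 to 0.16, adjusted p = 0.854). With the replicate number as a block, IL1B (adjusted p = 0.0363) and IL6 (adjusted p = 0.00823) passed too, so that 4 of 6 genes were called. IL1B also passed without afatinib replicate 2 (0.0273) or paclitaxel replicate 3 (0.0446), IL6 without afatinib replicate 2 (0.0388) or combination replicate 1 (0.0437), and IL11, as a rise, without combination replicate 4 (0.24, adjusted p = 0.0492). Within replicates 1 and 2 alone IL11 was higher by 0.44 (adjusted p = 0.00944), and within replicates 3 and 4 it differed by −0.13 (adjusted p = 0.433). IL1B passed as well by DESeq2 (adjusted p = 0.0451), with log2 RNA concentration as covariate (0.0376), with only the groups compared (0.0487) and without a filter on low counts (0.0289), where IL6 passed too (0.0138).

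**Figure D3:**
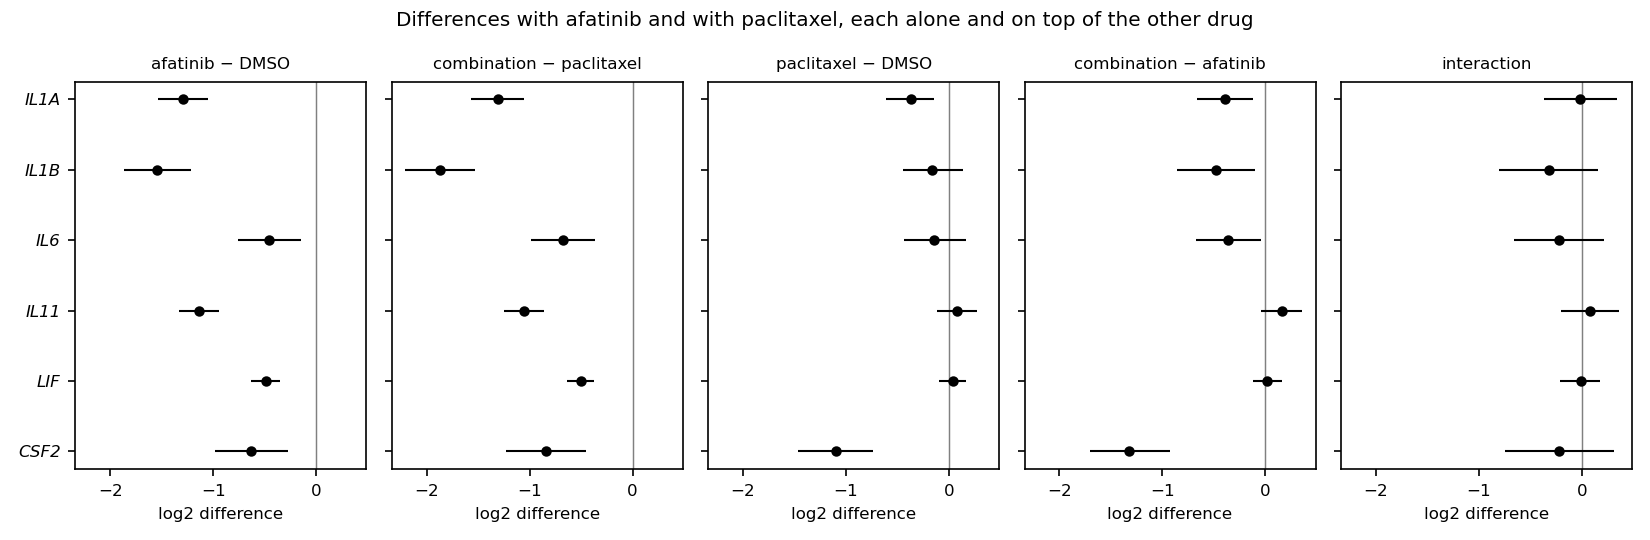
Log2 differences (x axis) of the 6 cytokine genes with afatinib alone and on top of paclitaxel, with paclitaxel alone and on top of afatinib, and the interaction (the departure of the combination from the sum of both single-drug differences); points are estimates and bars 95% intervals. Afatinib differences lie left of 0 for all 6 genes with or without paclitaxel, and of the paclitaxel differences those of CSF2, −1.10 and −1.32, lie farthest left.

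No departure of the combination from the sum of both single-drug differences was called for any of the 6 genes by edgeR (0 of 6, also 0 of 6 at an unadjusted p under 0.05, and 0 of 6 by DESeq2), while 0.884% of all tested genes were called (0.495% lower, 0.389% higher). This test uses all 4 groups and is not independent of the choice of genes. The 95% intervals of the interaction were −0.37 to 0.34 for IL1A, −0.80 to 0.16 for IL1B and −0.66 to 0.22 for IL6. They were −0.20 to 0.36 for IL11, −0.21 to 0.18 for LIF and −0.74 to 0.31 for CSF2, and departures within these intervals could not be told from 0.

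Replicates 3 and 4 against 1 and 2 called 3 genes higher and 1 lower of the 6, where 36.2% and 33.3% of all genes were called in these directions and 69.5% in all, so the count is no result about these genes. CSF2 was higher by 0.75 ± 0.12 (adjusted p = 7.37e-05), LIF by 0.52 ± 0.05 (adjusted p = 3.68e-10) and IL1B by 0.48 ± 0.11 (adjusted p = 0.00049). IL11 was lower (−0.16 ± 0.07, adjusted p = 0.0424), and that call was ended by leaving out combination replicate 2, 3 or 4, paclitaxel replicate 2 or 3 or DMSO replicate 2 or 4 (−0.17 to −0.11). IL1A (0.10 ± 0.09) and IL6 (−0.10 ± 0.11) were not called. The labelled concentrations also differed between treatments, with 345.6 and 429.7 ng/µl in paclitaxel replicates 1 and 2 against 1050.5 and 1290.9 in those of DMSO, so treatment and concentration cannot be fully told apart.

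The genes most like each cytokine over 16 libraries, by Pearson correlation of log2 CPM after the set means were removed (libraries share treatments, given as a description), were as follows. HHIP, which encodes a hedgehog-binding protein, was nearest IL1A (r = 0.976), and the chemokine gene CXCL8 was nearest IL1B (r = 0.967). MARCKS (r = 0.968) and CHST3 (0.966) were nearest LIF, TNFAIP2 (0.959) nearest IL11, RUSC2 (0.935) nearest IL6 and CDC45 (0.974), which encodes a subunit of the replicative helicase, nearest CSF2. By root mean square difference, the 2 nearest genes were the same for LIF, 1 of the 2 for IL1A and IL1B, and none for IL6, IL11 and CSF2. Among the 6 themselves r was 0.95 between IL1A and IL1B and between IL11 and LIF, and 0.38 between IL11 and CSF2.

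Of 9 tested receptors and antagonists 3 rose and none fell in the combination against paclitaxel, and 3 rose and none fell against afatinib (medians 0.11 and 0.10, against −0.01 and 0 over all genes). Over all tested genes 11.6% were called lower and 12.6% higher against paclitaxel, and 14.3% and 13.1% against afatinib. No set test was run, so the counts in this and the following lists are not read as results about the lists. IL6R, the IL6 partner receptor, rose by 0.52 ± 0.09 (adjusted p = 0.000118) against paclitaxel and by 0.49 ± 0.09 (adjusted p = 0.000151) against afatinib. LIFR rose against afatinib by 0.42 ± 0.07 (adjusted p = 2.55e-05). IL11RA (0.41 ± 0.15, adjusted p = 0.0422) and CSF2RA (0.31 ± 0.10, adjusted p = 0.0256) rose against paclitaxel. The call of CSF2RA was lost without combination replicate 4 or paclitaxel replicate 3 or 4 (adjusted p = 0.0858 to 0.108), and that of IL11RA without combination replicate 1, 2 or 4 or paclitaxel replicate 2, 3 or 4 (adjusted p = 0.0512 to 0.121). CSF2RA, also higher against afatinib (0.37 ± 0.10, adjusted p = 0.00635), lies in the pseudoautosomal region, so its reads may be shared between copies. IL1RAP, the IL1 partner receptor, was lower with paclitaxel than in DMSO (−0.21 ± 0.07, adjusted p = 0.0465), a call kept in 6 of 16 fits without 1 library, and was not called in the combination against paclitaxel (0.12 ± 0.07) or afatinib (0.01 ± 0.07). The shared subunit IL6ST differed by 0.03 ± 0.06 and 0.10 ± 0.06. IL1RN, CSF2RB, IL1RL1 and CNTFR had at most 8 counts in any library and were not tested; CSF2RB, the signalling subunit for GM-CSF, had at most 5.

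Of 6 related ligands 2 fell and 1 rose in the combination against paclitaxel (median −0.15), and 2 fell and 2 rose against afatinib (median 0.07). The shares over all genes were 11.6% lower and 12.6% higher against paclitaxel, and 14.3% and 13.1% against afatinib. The next 3 values are against paclitaxel. CLCF1, a gp130 ligand, fell by 0.22 ± 0.06 (adjusted p = 0.00677), and IL18, another IL1-family cytokine, rose by 0.37 ± 0.07 (adjusted p = 0.000321). CSF3, which encodes G-CSF, fell by 0.48 ± 0.15 (adjusted p = 0.0367), a call lost without combination replicate 1 or 3, paclitaxel replicate 2 or 4 or afatinib replicate 1 or 4 (adjusted p = 0.0502 to 0.104). Against afatinib, CTF1 (−0.90 ± 0.15, adjusted p = 6.3e-05) and CSF1 (−0.41 ± 0.10, adjusted p = 0.00321) fell, and IL18 (0.31 ± 0.07) and CLCF1 (0.25 ± 0.06) rose.

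Of 9 genes of IL1 processing 1 fell in the combination against paclitaxel (median 0.04). This was NLRP3, an inflammasome sensor (−0.66 ± 0.10, adjusted p = 5.42e-05). Against afatinib 2 fell and 2 rose (median −0.15), with CASP4 higher by 0.28 ± 0.06 (adjusted p = 0.000604). The interaction of CASP4 was called as well, as a positive departure (edgeR adjusted p = 0.0459). That call was kept in 5 of 16 fits without 1 library. Caspase 1 (CASP1) stood at a mean of 0.237 CPM. Of 14 IL1 signalling genes 2 fell and 2 rose in the combination against paclitaxel (median 0.04), and likewise 2 and 2 against afatinib (median 0.04). These signalling counts are near the shares over all genes, 11.6% lower and 12.6% higher against paclitaxel and 14.3% and 13.1% against afatinib. Against paclitaxel the adaptor MYD88 differed by −0.26 ± 0.07 (adjusted p = 0.00624) and TAB1 by 0.23 ± 0.06 (adjusted p = 0.00771).

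**Figure D4:**
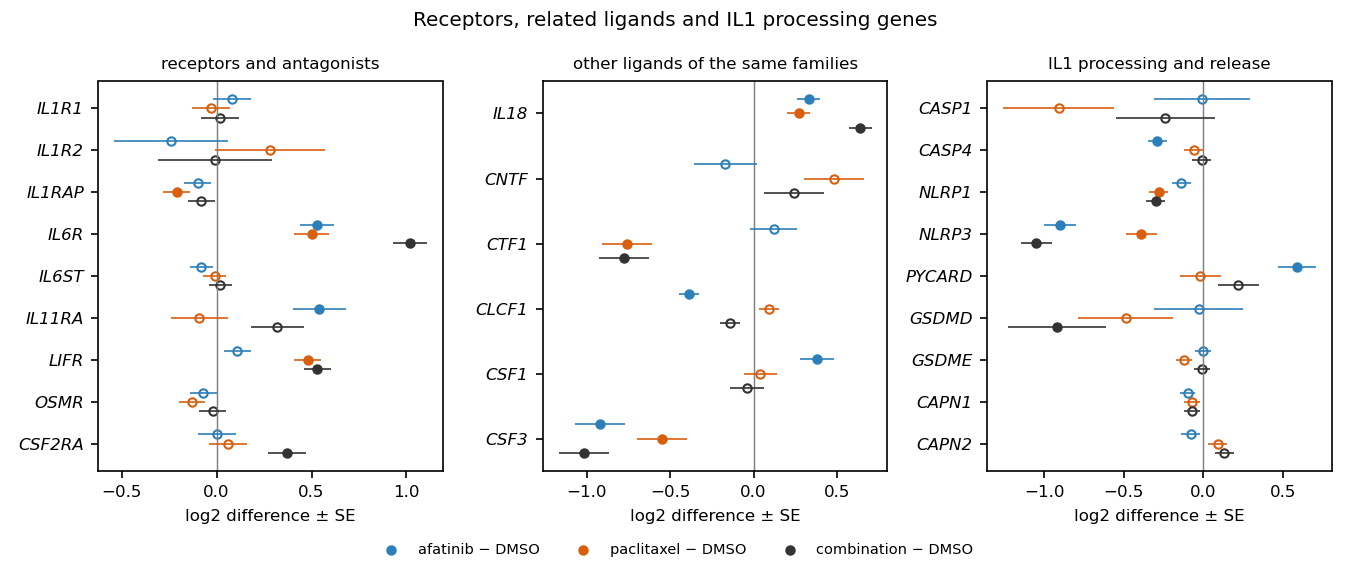
Log2 difference ± SE (x axis) from DMSO of tested receptors, related ligands and IL1 processing genes with afatinib (blue), paclitaxel (orange) and the combination (black); filled points passed an adjusted p under 0.05 and open points did not. IL6R is to the right of 0 in all 3 treatments, and NLRP3 and CSF3 are to the left.

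Of 18 transcription factors known to act at these genes 4 fell and 1 rose in the combination against paclitaxel (median −0.06). The shares over all genes were 11.6% lower and 12.6% higher there, and 14.3% and 13.1% against afatinib. The AP-1 gene JUNB fell by 0.87 ± 0.10 (adjusted p = 1.6e-06), JUN by 0.40 ± 0.06 (adjusted p = 4.16e-05), CEBPD by 0.47 ± 0.10 (adjusted p = 0.000699) and ETS1 by 0.32 ± 0.07 (adjusted p = 0.000707), and RELB rose by 0.22 ± 0.06 (adjusted p = 0.00602). Against afatinib 6 fell and 4 rose (median −0.10), with JUND at −0.82 ± 0.09 and CEBPD at −0.76 ± 0.09. The interaction was called for CEBPD (−0.62 ± 0.13, adjusted p = 0.03), and this call was ended by leaving out afatinib replicate 3 or 4, paclitaxel replicate 1 or 4, combination replicate 1 or 3 or DMSO replicate 1 or 4 (−0.64 to −0.55).

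Of 14 regulators of AU-rich mRNA decay 4 fell and 1 rose in the combination against paclitaxel, and 4 fell and 2 rose against afatinib (medians −0.06 and 0.04). The shares over all genes were 11.6% lower and 12.6% higher against paclitaxel, and 14.3% and 13.1% against afatinib. ZFP36L1, a tristetraprolin relative, fell by 0.59 ± 0.07 (adjusted p = 6.29e-07) and by 0.29 ± 0.07 (adjusted p = 0.00167). The RNase gene ZC3H12A fell by 0.24 ± 0.05 (adjusted p = 0.00195) and 0.22 ± 0.05 (adjusted p = 0.00293). Of 16 JAK-STAT genes 4 fell and 3 rose against afatinib (median 0), and 3 fell and none rose against paclitaxel (median −0.08), namely MYC (−0.66 ± 0.09), SOCS2 (−0.55 ± 0.09) and PIM1 (−0.34 ± 0.08). STAT3 differed by 0.02 ± 0.05 against paclitaxel and rose by 0.23 ± 0.05 (adjusted p = 0.00151) against afatinib.

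Of 58 tested neighbours within 250 kb other than the cytokines, 8 fell and 8 rose in the combination against paclitaxel (median −0.04), where 11.6% and 12.6% of all genes were called lower and higher. Against afatinib 11 fell and 9 rose (median 0), where these shares were 14.3% and 13.1%. These counts are near the shares over all genes and are no result about the neighbours. CKAP2L, which lies 9238 bases from IL1A and encodes a mitotic spindle protein, rose by 0.27 ± 0.07 (adjusted p = 0.00445) against paclitaxel and by 0.58 ± 0.07 (adjusted p = 4.88e-07) against afatinib, while IL1A fell in both comparisons. The interaction of CKAP2L was called, as a positive departure (edgeR adjusted p = 0.0378), and that call was kept in 6 of 16 fits without 1 library. UBE2S, 29282 bases from IL11, rose against afatinib by 0.52 ± 0.06 (adjusted p = 2.87e-07).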

How the data were processed

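RNA sequencing of 16 libraries was analysed. Raw counts per gene, as deposited by the authors, came from STAR 2.7.5b on hg38 and featureCounts (Subread 2.0.1), as the submitters' processing notes list them. A second deposited table holds log2 values that the authors corrected for RNA concentration, used only as an alternative. From the counts, genes passing filterByExpr (minimum count 10, minimum total 15) were scaled by TMM and tested in edgeR 4.0.16 (R 4.3.3) by its quasi-likelihood F-test, robust setting, with group and concentration set as terms, all 16 libraries in 1 fit (11 residual degrees of freedom). SE is the absolute log2 difference divided by the square root of F. Alternatives used DESeq2 1.42.0 and limma 3.58.1. The common biological coefficient of variation was 7.41%. CPM, RPKM and log2 CPM (prior count 2) were computed from the counts.

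The members and lists were chosen with earlier results of these data known. Of 103 list symbols 100 matched. Named are the 6 members, the genes most correlated with each, up to 5 called genes per list in order of p, and called neighbours. The selection printed from these was made with their values known. STEAP1B, IL6ST, STAT3, CASP1 and untested receptors were named outside that rule. Libraries of the same replicate number correlated in their deviations from group means by 0.37 to 0.70 (24 pairs). Each exceeded 0.1, but same-set libraries of other numbers correlated by 0.38 to 0.67 (medians 0.59 and 0.5). Pairing by number could therefore not be told from the shared concentration set. The main fit did not use the number, and the fit with the number as a block is an alternative. Within a group, χ² per gene between libraries was 6.62 to 336, so no library was a copy. Promoters are from RefSeq, with 5 of the 6 genes matched, and 3′ UTRs from GENCODE v29. A further 2 numeric columns were not used.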

Additional observations from a re-analysis of the deposited data

Results flagged for a closer look

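In 2 of the 24 sets of 4 libraries (6 genes in 4 groups), 1 library stood far from the other 3, where chance flags about 1 in 20. That rate assumes 4 values of the same distribution. The CPM were not adjusted for the 2 concentration sets in each group, so the rate may not hold here. IL1A in afatinib replicate 2 was 5.98 CPM, and the other 3 afatinib libraries were at 4.98 to 5.03 CPM. IL1A in combination replicate 1 was 3.37 CPM, and the other 3 combination libraries were at 4.18 to 4.27 CPM. The IL1A call in the combination against afatinib was lost without either library (adjusted p = 0.13 and 0.103, edgeR).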

How the results depend on the processing

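In the combination against paclitaxel 4 to 6 of 6 genes were called in all alternatives, and 6 without any single library. In the combination against afatinib (2 called), 4 were called without a filter on low counts and with the replicate block, and 1 without the concentration term, within replicates 3 and 4 and by limma on the deposited table. Afatinib against DMSO (6) gave 3 without the concentration term. Paclitaxel against DMSO (2) gave 0 without that term and 1 within replicates 1 and 2, within replicates 3 and 4 and by limma. Leaving out 1 library gave 4 to 6 calls for afatinib against DMSO, 1 to 2 for paclitaxel, 6 for the combination, 2 to 3 for the combination against afatinib, 0 for the interaction and 3 to 4 for the sets. The replicate block changed no other call of the 6 genes; it gave 501 genes called in the interaction against 159.

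Estimates near 0 changed sign. LIF became −0.21 with log2 RNA concentration as a covariate, −0.02 within replicates 3 and 4 and −0.2 by limma for paclitaxel against DMSO. In the combination against afatinib LIF became −0.12, −0.04 and −0.09 under the same settings, and IL11 −0.13 within replicates 3 and 4. In the interaction, LIF became 0.09 (covariate), 0.11 (limma) and 0.01 (no filter), IL1A 0.01 (no filter) and 0.1 (replicates 3 and 4), and IL11 −0.15 (replicates 3 and 4). Leaving out 1 library moved LIF between −0.01 and 0.1 (paclitaxel against DMSO), 0 and 0.07 (combination against afatinib) and −0.08 and 0.04 (interaction), and IL1A between −0.13 and 0.08 and IL11 between −0.02 and 0.17 (interaction). The cause was not tested.

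The genes called over the whole table moved by over 1.5 times. Without the concentration term they were 380 (main 3432) for afatinib, 625 (3694) for paclitaxel, 2310 (6830) for the combination, 768 (4347) against paclitaxel, 1143 (4935) against afatinib and 0 (159) for the interaction. By limma they were 1108, 1148, 4067, 2170, 2113 and 2 in that order. Within replicates 1 and 2 they were 1245 for afatinib, 1779 for paclitaxel, 1974 against paclitaxel, 2528 against afatinib and 3 for the interaction, and within replicates 3 and 4 they were 527, 796, 3181 (combination), 1298, 2019 and 4. The interaction also gave 367 by DESeq2, 479 without a filter, 26 with the covariate and 34 to 279 without 1 library. Counts of 44 to 89 per library for IL1B with afatinib or the combination limit its precision.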
